A study of Homo sapiens with 12 samples.

Results

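The genes described here are the hyaluronan turnover genes CEMIP, HAS2, HAS3, HYAL1, HYAL2, HYAL3, CD44 and HMMR. These 8 members were taken by gene symbol from the 58233 genes of the deposited count table, and all 8 were present. The list was selected on the measured Dox/IAA response of CEMIP, the largest rise among the better expressed genes, so the CEMIP values are described below without a test. RNA was sequenced from HCT116 cells, an established human colorectal carcinoma line, in 4 conditions with 3 libraries each. The parental cell line, HCT116 Tet-OsTIR1, expresses the auxin receptor OsTIR1 from a doxycycline-inducible cassette at the AAVS1 locus. SDS22-degron cells were derived from it by tagging both PPP1R7 alleles, which encode the protein phosphatase 1 regulator SDS22, with mAID-mClover, and were expanded from isolated colonies. Both lines therefore carry OsTIR1, and each was left untreated or was kept for 48 h in 2 µg/ml doxycycline (Dox) and 500 µM of the auxin indole-3-acetic acid (IAA), which directs the tagged protein to the proteasome. Differences between the lines cannot be told apart from differences between a derived line and its parent.

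Hyaluronan is a long unbranched glycosaminoglycan of the extracellular matrix, built from alternating glucuronic acid and N-acetylglucosamine. Hyaluronan synthases (HAS) at the plasma membrane join these sugars from their UDP-activated forms and push the growing chain out of the cell. CEMIP, a secreted protein also known as HYBID, and the hyaluronidases (HYAL) take part in its breakdown, while CD44 and HMMR (also known as RHAMM) bind it. HMMR is in addition a microtubule-associated protein of the mitotic spindle, with levels that vary through the cell cycle.

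The promoters of CEMIP and HMMR are shown, CEMIP because the list was selected on its response and HMMR because it had the largest called difference among the other members tested. The sequences are the bases upstream of the RefSeq start site on the plus strand of GRCh38.p14, at chr15:80779120-80779369 for CEMIP and chr5:163460382-163460631 for HMMR. They are printed 5′ to 3′ with matches to the searched motifs in capitals.
CEMIP: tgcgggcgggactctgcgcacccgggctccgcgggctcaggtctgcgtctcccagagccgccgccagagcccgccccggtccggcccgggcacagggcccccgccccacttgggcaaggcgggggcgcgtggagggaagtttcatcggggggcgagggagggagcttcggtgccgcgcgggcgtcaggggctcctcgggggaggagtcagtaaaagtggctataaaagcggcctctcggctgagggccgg
HMMR: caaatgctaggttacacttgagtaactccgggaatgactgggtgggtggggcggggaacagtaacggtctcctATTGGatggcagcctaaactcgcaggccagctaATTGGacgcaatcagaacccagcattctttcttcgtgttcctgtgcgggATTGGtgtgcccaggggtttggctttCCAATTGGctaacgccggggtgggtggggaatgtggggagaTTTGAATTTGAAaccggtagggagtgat
The motifs, searched on both strands, were AP-1 (TGANTCA), the cell cycle homology region (TTTGAA), the CCAAT box (CCAAT), the E-box (CACGTG), TCF/LEF (CTTTGAT) and the aryl hydrocarbon response element (TNGCGTG). In CEMIP, the window from 250 bases before to 50 bases after the start site held 0 matches to all 6, and its 250 upstream bases had a GC content of 74.4%. The HMMR window held 2 adjacent TTTGAA matches at positions -28 and -22 and 5 CCAAT matches, of which 4 were on the opposite strand and a pair overlapped at -69 and -66. Of 35116 RefSeq promoters of the same length, 15.16% held TTTGAA and 34.61% held CCAAT on either strand. Among the other members, HAS3 held 1 E-box and HYAL3, in the first of its 2 windows, 1 aryl hydrocarbon response element, which are found in 7.256% and 5.51% of promoters. HYAL1, HYAL2 and CD44 held 0 matches. The HYAL1 and HAS3 windows lay 8807 and 1976 bases from the 5′ end that the count table gives for these genes. The HMMR start site lay 429 bases downstream of its deposited 5′ end, so the printed HMMR bases lie within the gene as counted. For CEMIP this distance was 27 bases. These matches describe the sequence and not binding of a factor.

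Library totals ranged from 12133915 to 14657508 counted reads. Levels are given as TMM-normalized CPM (counts scaled to a common library size), or per kilobase of the length in the deposited table (RPKM) where genes are set side by side. Of 16657 genes with enough counts to be tested, 7 were members, and HAS2 was not among them. Tests used the quasi-likelihood F test of edgeR with Benjamini-Hochberg adjustment over all 16657 genes, and a gene was called at an adjusted p under 0.05. PPP1R7 mRNA was between 40.1 and 51.1 CPM in all libraries, which does not check the protein depletion. Reads of the mitochondrial genome took 3.11% to 7.09% of the counts, with the highest shares in Dox/IAA-treated SDS22-degron cells, and their part in the results was not tested. The epithelial markers EPCAM (263 to 306 CPM), KRT8, KRT18, KRT19, CDH1 and CDX2 were present in every library, while CDX1 was at 0 and VIL1 had 5 counts in all. Of 8 fibroblast markers 5 were at 0 and only COL1A1 was tested; their sum was 9.96 to 15.8 CPM in untreated and 17.3 to 31.7 CPM in Dox/IAA-treated cells. The summed leukocyte markers stayed at or below 0.782 CPM and the endothelial ones at or below 1.81 CPM. In bulk RNA, fewer expressing cells and less RNA per cell cannot be told apart.

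**Figure D1:**
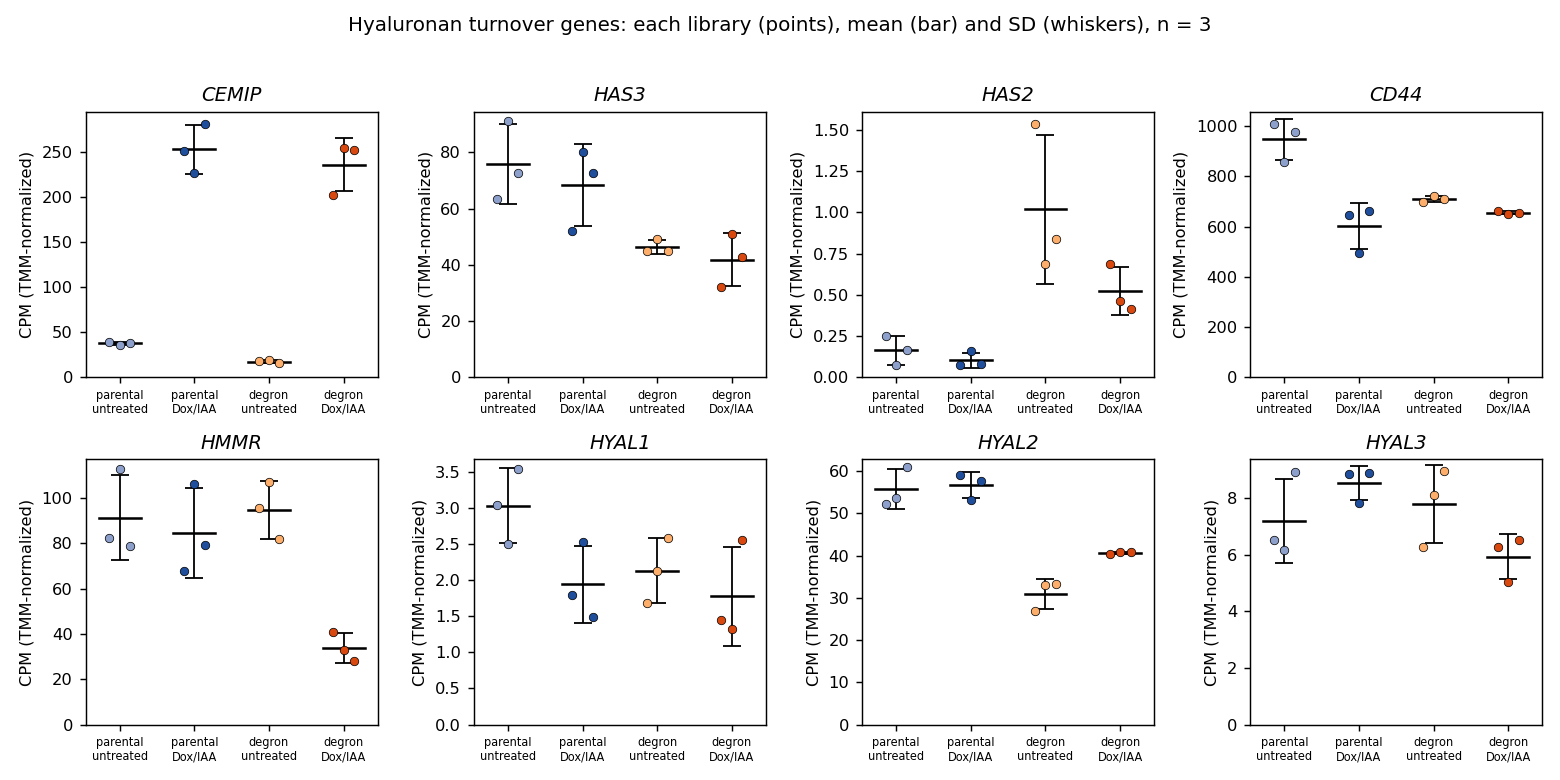
CPM (vertical axes, linear from 0) of each hyaluronan turnover gene in the 4 conditions; points are libraries, bars the mean and whiskers the SD (n = 3). CEMIP stands at 203 to 281 CPM in treated and 16.1 to 39.8 CPM in untreated libraries, and HMMR at 27.8 to 40.9 CPM only in treated SDS22-degron cells (degron on the axis).

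CEMIP (ENSG00000103888, chr15:80779343-80951776, plus strand) was strongly higher after Dox/IAA in both lines. In untreated parental cells it had 39.8, 36.5 and 38.4 CPM in the 3 libraries, and in Dox/IAA-treated parental cells 252, 227 and 281 CPM. Untreated SDS22-degron cells had 17.8, 19.3 and 16.1 CPM, and their treated counterparts had 203, 254 and 252 CPM. All treated libraries were thus above all untreated ones, the untreated lines did not overlap, and the treated lines did. The fitted log2 fold change after Dox/IAA was 3.74 in SDS22-degron cells, or 13.3-fold, and 2.73 in parental cells, or 6.63-fold. Between the lines, CEMIP differed by a log2 fold change of -1.11 without and of -0.10 with Dox/IAA. The fold was larger in SDS22-degron cells by 1.01 on the log2 scale, and these cells had the lower untreated level, while the treated means were 253 ± 27.2 CPM in parental and 236 ± 29.1 CPM in SDS22-degron cells (SD, n = 3).

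By log2 fold change alone, CEMIP ranked 7th of 16657 tested genes in SDS22-degron and 13th in parental cells, behind genes such as IL23R with a mean of 2.54 CPM. Among the 10851 better expressed genes, those with a mean of at least 10 CPM, it ranked 1st in both lines. The next were SELENOP in SDS22-degron cells (log2 fold change 2.91) and NTN1 in parental cells (1.96). CEMIP shares 5488 bases with MESDC2 on the opposite strand, which had 873 to 1410 counts per library. MESDC2 rose after Dox/IAA by 0.36 on the log2 scale in SDS22-degron cells (edgeR adjusted p = 0.000221) and by 0.22 in parental cells (adjusted p = 0.0177, but 0.0834 without replicate 3 of untreated parental cells). Antisense genes within CEMIP had at most 4 counts in total. Over the 12 libraries, the genes with log2 CPM most like CEMIP were ITGB1 (Pearson r = 0.983), TRIM38, TIPARP, MAPK13 and ZNF608 (0.981), a description across libraries that share their conditions.

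Per length, CEMIP moved from the lower to the upper end of the members. CD44 had the highest level in every condition, at 94.2, 59.8, 70.6 and 65.2 RPKM in untreated and treated parental and in untreated and treated SDS22-degron cells. CEMIP came 5th in untreated parental cells (5.02 ± 0.214 RPKM) and 6th in untreated SDS22-degron cells (2.32 ± 0.208 RPKM), below HYAL3. After Dox/IAA it came 2nd in both lines, at 33.2 ± 3.57 and 31.0 ± 3.82 RPKM (SD, n = 3). HMMR, at 21.4 to 24.1 RPKM in the other conditions, was 4th in treated SDS22-degron cells with 8.60 RPKM. There its libraries overlapped those of HYAL2 (8.94 RPKM) above and HAS3 (7.92 RPKM) below. HAS3 and HYAL2 also overlapped in both parental conditions, and all other neighbours in these orders were separate. HYAL1 was at 0.566 to 0.967 RPKM and HAS2 was last at 0.0248 to 0.243 RPKM.

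**Figure D2:**
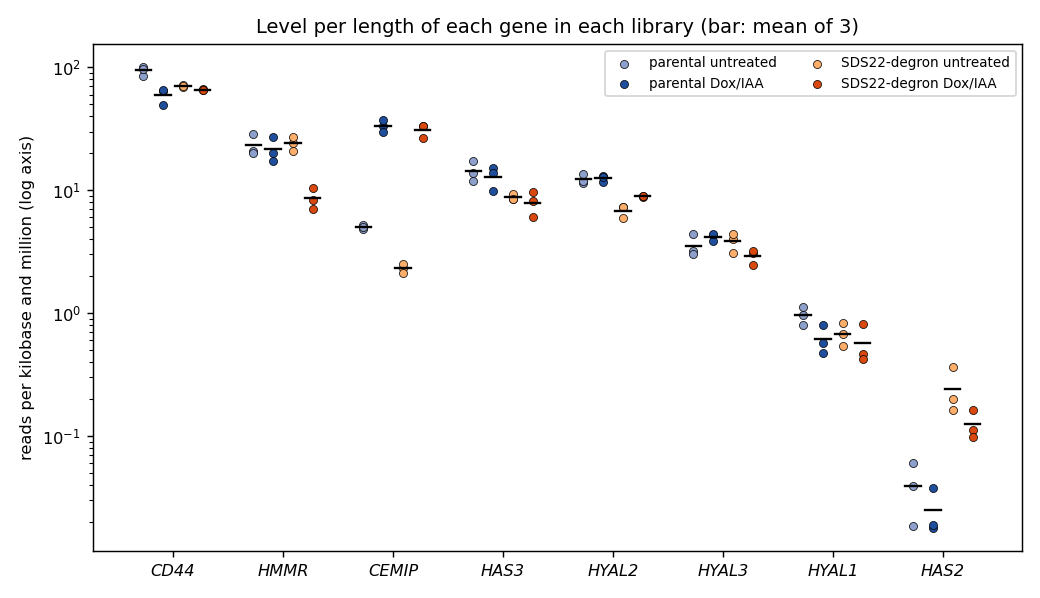
RPKM (vertical log axis) of each gene in each library, coloured by condition, with a bar at the mean of 3. CD44 is highest throughout, CEMIP is second after Dox/IAA, and HAS2 is lowest in every condition.

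Of the synthases, HAS3 was the main one in these cells and was lower in SDS22-degron than in parental cells with either treatment. HAS3 (ENSG00000103044, chr16:69105564-69118719, plus strand) had 63.3, 91.2 and 72.8 CPM in untreated and 52.0, 80.2 and 72.7 CPM in treated parental cells. Untreated SDS22-degron cells had 44.9, 49.3 and 45.1 CPM and treated ones 32.0, 50.8 and 42.8 CPM. The lines did not overlap in either state, whereas treated and untreated libraries of a line did. The log2 fold change between the lines was -0.71 ± 0.16 (SE) untreated (edgeR adjusted p = 0.00235) and -0.70 ± 0.16 with Dox/IAA (adjusted p = 0.00143). After Dox/IAA it was -0.15 in each line, with 95% intervals of -0.49 to 0.19 in SDS22-degron and -0.48 to 0.17 in parental cells. The median of the 725 tested chromosome 16 genes was itself -0.30 between the untreated and -0.31 between the treated lines, and that of 85 genes within 2 Mb of HAS3 was -0.36 in both, a shift whose part in the HAS3 difference was not tested. HAS3 shares 710 bases with CHTF8 on the opposite strand, which was lower by 0.28 and 0.30 on the log2 scale in the same comparisons.

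HAS2 (ENSG00000170961, chr8:121612116-121641390, minus strand) was close to the limit of detection but had more counts in SDS22-degron cells. The libraries had 3, 1 and 2 counts in untreated and 1, 2 and 1 in treated parental cells, against 21, 10 and 11 in untreated and 9, 6 and 5 in treated SDS22-degron cells. The lines did not overlap. Summed over libraries and scaled to depth, SDS22-degron cells had 6.21 times the parental level untreated (95% interval 2.63 to 17.9) and 5.07 times with Dox/IAA (1.70 to 20.4). The ratio after Dox/IAA was 0.517 (0.287 to 0.900) in SDS22-degron and 0.633 (0.131 to 2.67) in parental cells. These exact intervals cover counting error only. HAS2 entered no main test; without the filter on low counts edgeR gave an adjusted p of 0.000146 between the untreated and 0.0104 between the treated lines, and DESeq2 gave 0.00664 and 0.0366. For Dox/IAA in SDS22-degron cells they gave 0.105 and 0.240, neither called, and the edgeR fits without 1 library that kept HAS2 gave 0.0275 to 0.140. The antisense gene HAS2-AS1, which shares 2098 bases with HAS2, had 5 counts in untreated and 1 in treated parental cells, and 25 and 2 in the same states of SDS22-degron cells. HAS1 had 0 counts in all libraries.

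The hyaluronidase HYAL2, which is anchored at the cell surface, was lower in SDS22-degron cells and rose there with Dox/IAA. HYAL2 (ENSG00000068001, chr3:50317790-50322906, minus strand) had 52.3, 53.6 and 61.1 CPM in untreated and 59.0, 53.2 and 57.7 CPM in treated parental cells. Its levels were 26.9, 32.9 and 33.2 CPM in untreated and 40.3, 40.7 and 40.8 CPM in treated SDS22-degron cells. Only the parental conditions overlapped. It was lower in SDS22-degron cells by a log2 fold change of -0.84 ± 0.09 untreated (SE, edgeR adjusted p = 1.47e-06) and of -0.48 ± 0.09 treated (adjusted p = 0.000178). With Dox/IAA HYAL2 rose by 0.39 ± 0.09 in SDS22-degron cells (adjusted p = 0.00127), against 0.03 in parental cells (95% interval -0.15 to 0.20). The difference of these responses, 0.36, missed the threshold (adjusted p = 0.0552) but passed it in 5 of 22 alternatives (0.0240 to 0.156). These included the edgeR fit with replicate number as a block (adjusted p = 0.0313). Tested genes of chromosome 3 had medians of -0.27 and -0.26 between the untreated and treated lines, and those within 2 Mb of HYAL2 of -0.33 and -0.29; their part was not tested. TUSC2, with which HYAL2 shares 2880 bases on the same strand, differed by -0.11 and -0.15, neither called.

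HYAL3 and HYAL1, the other hyaluronidases next to HYAL2 on chromosome 3, had low counts. HYAL1 is the lysosomal enzyme of this family. HYAL3 (ENSG00000186792, chr3:50292831-50299468, minus strand) had 6.50, 6.18 and 8.90 CPM in untreated parental and 8.85, 7.82 and 8.89 CPM in treated parental cells. In SDS22-degron cells it had 6.27, 8.12 and 8.96 CPM untreated and 6.25, 5.03 and 6.51 CPM with Dox/IAA. The treated lines did not overlap, and HYAL3 was lower in treated SDS22-degron cells by a log2 fold change of -0.52 ± 0.17 (SE, edgeR adjusted p = 0.0162). Without replicate 2 of treated SDS22-degron cells this was -0.42 and the call was lost (adjusted p = 0.0785). Between the treated lines, tested genes of chromosome 3 had a median of -0.26 and the 90 within 2 Mb of HYAL3 of -0.29. Their part was not tested. The untreated lines differed in HYAL3 by 0.11, not called (edgeR adjusted p = 0.652). Dox/IAA gave -0.39 in SDS22-degron cells (edgeR adjusted p = 0.0597), which passed the threshold in 7 of 17 alternatives (0.0135 to 0.228). In parental cells it gave 0.25 (adjusted p = 0.272). The difference of these responses was -0.64 (adjusted p = 0.0778), which passed the threshold in 6 of 22 alternatives (0.0293 to 0.183). For both results these included the edgeR fit with replicate number as a block (adjusted p = 0.0324 and 0.0358). NAT6 shares 3020 bases with HYAL3 on the same strand and had 62 to 113 counts per library, so the counts of the pair are uncertain. NAT6 was lower by 0.54 in treated SDS22-degron cells (adjusted p = 0.00737), and IFRD2, which shares 88 bases, by 0.85 (adjusted p = 9.69e-09).

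HYAL1 (ENSG00000114378, chr3:50299889-50312381, minus strand) had 17 to 43 counts per library. There were 36, 32 and 43 counts in untreated and 24, 32 and 19 in treated parental cells, and 23, 31 and 34 in untreated and 19, 17 and 31 in treated SDS22-degron cells. All pairs of conditions compared overlapped and none of the 5 comparisons was called. The log2 fold change with Dox/IAA was -0.64 in parental cells (95% interval -1.20 to -0.08, edgeR adjusted p = 0.0754) and -0.27 in SDS22-degron cells (-0.87 to 0.32).

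CD44, the main cell-surface receptor of hyaluronan, fell with Dox/IAA in parental cells and was also lower in untreated SDS22-degron cells. CD44 (ENSG00000026508, chr11:35138870-35232402, plus strand) had 1009.8, 856 and 976 CPM in untreated parental cells. With Dox/IAA parental cells had 645, 496 and 662 CPM. SDS22-degron cells had 697, 723 and 709 CPM untreated and 663, 651 and 654 CPM treated. Untreated parental libraries were thus above all others, and the treated lines overlapped. In parental cells CD44 fell by 0.66 on the log2 scale with Dox/IAA (SE 0.09, edgeR adjusted p = 3.89e-05). In SDS22-degron cells the log2 fold change was -0.11 (95% interval -0.30 to 0.07, adjusted p = 0.305), although these libraries did not overlap. The responses differed by 0.54 (SE 0.13, adjusted p = 0.00751). The untreated lines differed by -0.42 (SE 0.09, adjusted p = 0.00186) and the treated lines by 0.13 (95% interval -0.06 to 0.31). The counts sum all isoforms, so that splice variants of CD44 are not resolved. Most like CD44 over the 12 libraries were BDNF (Pearson r = 0.962), ABCC2 (0.960) and EFNB2 (0.959).

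HMMR stood lowest in SDS22-degron cells kept in Dox/IAA, below every other condition. HMMR (ENSG00000072571, chr5:163460203-163491945, plus strand) had 82.4, 113 and 78.8 CPM in untreated and 67.8, 106 and 79.1 CPM in treated parental cells. In SDS22-degron cells it had 95.4, 107 and 81.7 CPM untreated but 40.9, 32.8 and 27.8 CPM with Dox/IAA. These treated libraries were below all 9 others, which overlapped among the conditions. HMMR fell with Dox/IAA by 1.48 on the log2 scale in SDS22-degron cells (SE 0.17, edgeR adjusted p = 7.69e-07). In parental cells the log2 fold change was -0.11 (95% interval -0.45 to 0.22), and the responses differed by -1.37 (SE 0.23, adjusted p = 0.000609). Between the treated lines it was -1.32 (SE 0.17, adjusted p = 4.88e-06) and between the untreated lines 0.05 (95% interval -0.27 to 0.38). The antisense gene HMMR-AS1 had 1 count in all. The genes most like HMMR over the 12 libraries were ZGRF1, TTK and CCNA2 (Pearson r = 0.994, 0.994 and 0.993), the latter 2 encoding a spindle checkpoint kinase and cyclin A2.

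**Figure D3:**
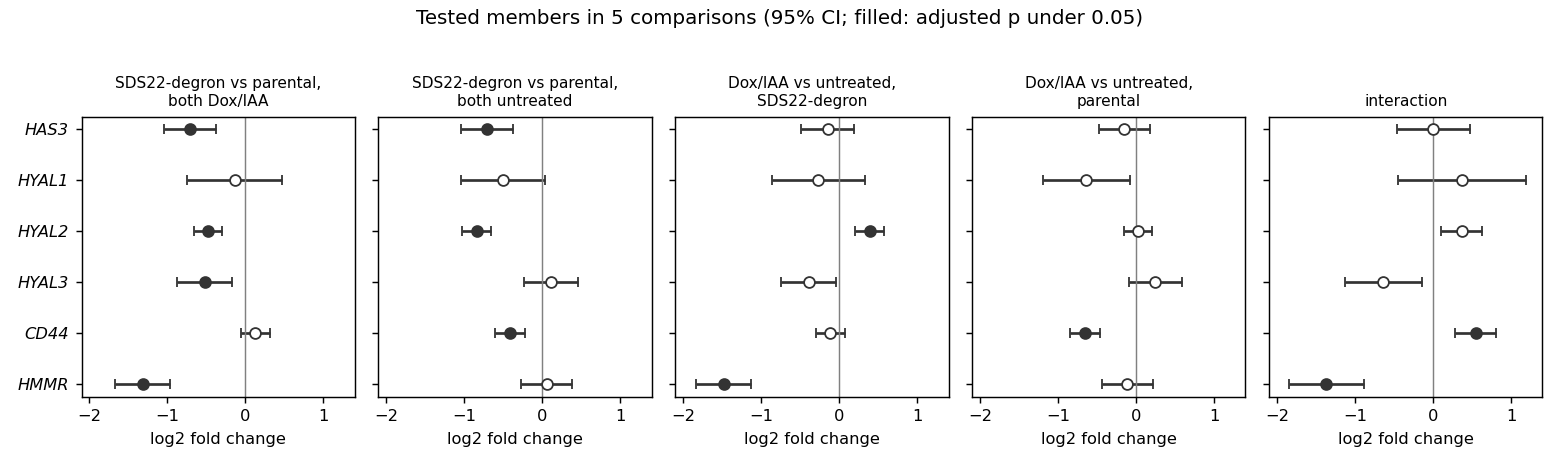
Log2 fold change (horizontal axes) with 95% confidence interval of the 6 members tested other than CEMIP in 5 comparisons; filled points are called and the interaction is the Dox/IAA effect in SDS22-degron minus that in parental cells. HMMR lies at -1.48 with Dox/IAA in SDS22-degron cells and at -0.11 in parental cells, CD44 at -0.11 and -0.66.

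Counted over HAS3, HYAL1, HYAL2, HYAL3, CD44 and HMMR, 4 of 6 were called between the treated lines, where 44.9% of all tested genes were called (3853 lower and 3633 higher). These were HAS3, HYAL2, HYAL3 and HMMR, each lower in SDS22-degron cells. Between the untreated lines 3 were called (HAS3, HYAL2 and CD44, each lower), against 28.2% of all genes (2500 lower and 2198 higher). Dox/IAA in SDS22-degron cells gave 2 calls, HYAL2 higher and HMMR lower, against 51.5% of all genes. In parental cells 1 member, CD44, was called and lower, against 31.6%. For the interaction 2 were called, CD44 higher and HMMR lower, against 14.4%. Libraries of the groups compared did not overlap for 52.9% of all genes between the treated lines, 43.5% between the untreated lines, 59.9% with Dox/IAA in SDS22-degron and 41.3% in parental cells. The medians of the 6 log2 fold changes were -0.50, -0.46, -0.21, -0.13 and 0.18 in this order, beside medians between -0.01 and 0.00 for all genes. HAS2 and CEMIP are outside these counts, and the comparisons share libraries. Between the treated and untreated lines, tested genes of chromosome 16, which holds HAS3, had medians of -0.31 and -0.30. Those of chromosome 3, where HYAL1, HYAL2 and HYAL3 lie near each other, had medians of -0.26 and -0.27. The part of these shifts in the member medians was not tested.

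The other genes of hyaluronan metabolism were described from 5 lists, of which 36 genes were tested. Among the other enzymes, TMEM2 rose in both lines with Dox/IAA and HEXA in SDS22-degron cells. TMEM2, also named CEMIP2 and a cell-surface relative of CEMIP, had 29.9 ± 2.71 and 40.5 ± 1.33 CPM in untreated and treated parental cells, and 43.3 ± 4.21 and 71.1 ± 7.69 CPM in SDS22-degron cells (SD, n = 3). With Dox/IAA it rose by 0.71 on the log2 scale in SDS22-degron cells (edgeR adjusted p = 3.16e-06) and by 0.44 in parental cells (adjusted p = 0.00217). TMEM2 was also higher in SDS22-degron cells, by 0.53 untreated and by 0.81 treated (adjusted p = 0.000386 and 1.21e-06), the opposite direction to CEMIP between the untreated lines. HEXA, a subunit of the lysosomal hexosaminidase that removes N-acetylglucosamine ends, rose by 0.77 with Dox/IAA in SDS22-degron cells (adjusted p = 3.27e-05), and its log2 fold change in parental cells was 0.00 (interaction 0.77, adjusted p = 0.00519). Its means were 22.5 and 22.4 CPM in untreated and treated parental cells, and 17.6 and 30.0 CPM in SDS22-degron cells. Between the untreated lines HEXA differed by -0.35, a call lost in 3 of 6 fits without 1 library (edgeR adjusted p up to 0.213). Between the treated lines it differed by 0.42, a call lost without replicate 2 of treated SDS22-degron cells (edgeR adjusted p = 0.0536). GUSB, which removes glucuronic acid ends, had log2 fold changes with Dox/IAA of 0.13 in SDS22-degron and 0.15 in parental cells, neither called. SPAM1, HYAL4 and HYALP1 had at most 1 count in all.

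Of the 11 enzymes of UDP-sugar supply and amino sugar handling, 5 rose and 3 fell with Dox/IAA in SDS22-degron cells, where 51.5% of all genes were called. In parental cells 3 rose and 2 fell, against 31.6% of all genes. Leaving out 1 library ended the call of PGM3 in SDS22-degron cells in 5 of 6 fits (edgeR adjusted p up to 0.124). That of GFPT1 there was lost in 3 of 6 (up to 0.0784). In parental cells the calls of GNPNAT1, NAGK and UGP2 were lost in 5, 3 and 1 of 6 fits (edgeR adjusted p up to 0.186, 0.112 and 0.0563). In the interaction the smallest adjusted p of edgeR among the 11 enzymes was 0.0717, for AMDHD2 (log2 difference -0.63). GFPT2, an isoform of the first enzyme of the hexosamine pathway, rose by 0.48 in SDS22-degron (adjusted p = 0.00169) and by 0.41 in parental cells (adjusted p = 0.0146, but up to 0.0931 without replicate 2 of untreated or 3 of treated parental cells). UGDH, which makes UDP-glucuronic acid, had a log2 fold change of -0.19 in each line, neither called. AMDHD2, an N-acetylglucosamine-6-phosphate deacetylase, was lower by 1.12 in treated SDS22-degron than in treated parental cells (adjusted p = 2.02e-05). Between the untreated lines its log2 fold change was -0.50. This was called, but not in 3 of 6 fits without 1 library (edgeR adjusted p up to 0.170).

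Of 24 other hyaluronan-binding proteins only 4 had enough counts to be tested, and 7 were at 0 in all libraries. VCAN, which encodes the matrix proteoglycan versican, had 389 ± 47.8 and 217 ± 34.1 CPM in untreated and treated parental cells and 319 ± 13.2 and 124 ± 15.3 CPM in SDS22-degron cells (SD, n = 3). It fell with Dox/IAA by 0.84 on the log2 scale in parental (edgeR adjusted p = 1.68e-05) and by 1.36 in SDS22-degron cells (adjusted p = 1.51e-08). The difference, -0.52, was called (adjusted p = 0.0269), but not without replicate 1 of untreated or 3 of treated parental cells, nor without replicate 1 of untreated or 1 or 3 of treated SDS22-degron cells (adjusted p up to 0.0751). C1QBP, a mainly mitochondrial protein also known as hyaluronan-binding protein, fell by 0.63 in parental and 1.19 in SDS22-degron cells (edgeR adjusted p = 2.19e-06 and 6.56e-10). HABP4 rose by 0.29 and 0.47 in the same order, the former not without replicate 1 of untreated or 1 or 3 of treated parental cells (adjusted p up to 0.150).

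Among 10 tested partners, sheddases and splicing factors of CD44, 5 rose and 3 fell with Dox/IAA in SDS22-degron cells, against 51.5% of all genes called, and 3 rose and 1 fell in parental cells, against 31.6%. The parental calls of EZR and MMP14 were lost in 4 and 5 of 6 fits without 1 library (edgeR adjusted p up to 0.187 and 0.162). The rise of ESRP1 in SDS22-degron cells lost its call in 5 of 6 such fits (edgeR adjusted p up to 0.143). MMP14, a membrane protease that can shed CD44, had 25.5 ± 1.59 and 30.8 ± 3.06 CPM in parental and 10.4 ± 0.251 and 20.9 ± 2.11 CPM in SDS22-degron cells (untreated and treated, SD, n = 3). Untreated SDS22-degron cells thus had less MMP14 by a log2 fold change of -1.30 (edgeR adjusted p = 8.27e-08), and it rose by 1.01 with Dox/IAA (adjusted p = 4.17e-07). The responses of the lines differed by 0.74 (adjusted p = 0.00206). EZR, encoding the actin linker ezrin, was the most abundant gene of the list at 663 RPKM over all libraries and fell by 0.44 in SDS22-degron and by 0.26 in parental cells (edgeR adjusted p = 0.000662 and 0.0418). The other linkers RDX and MSN differed from it in direction or call, as RDX rose by 0.42 in both lines and MSN by 0.27 in parental cells, with 0.01 in SDS22-degron cells. ADAM10 and ADAM17, which also cleave CD44, rose by 0.23 and 0.20 in SDS22-degron cells, the latter not without replicate 1 or 3 of untreated or 1 of treated SDS22-degron cells (edgeR adjusted p up to 0.0980).

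**Figure D4:**
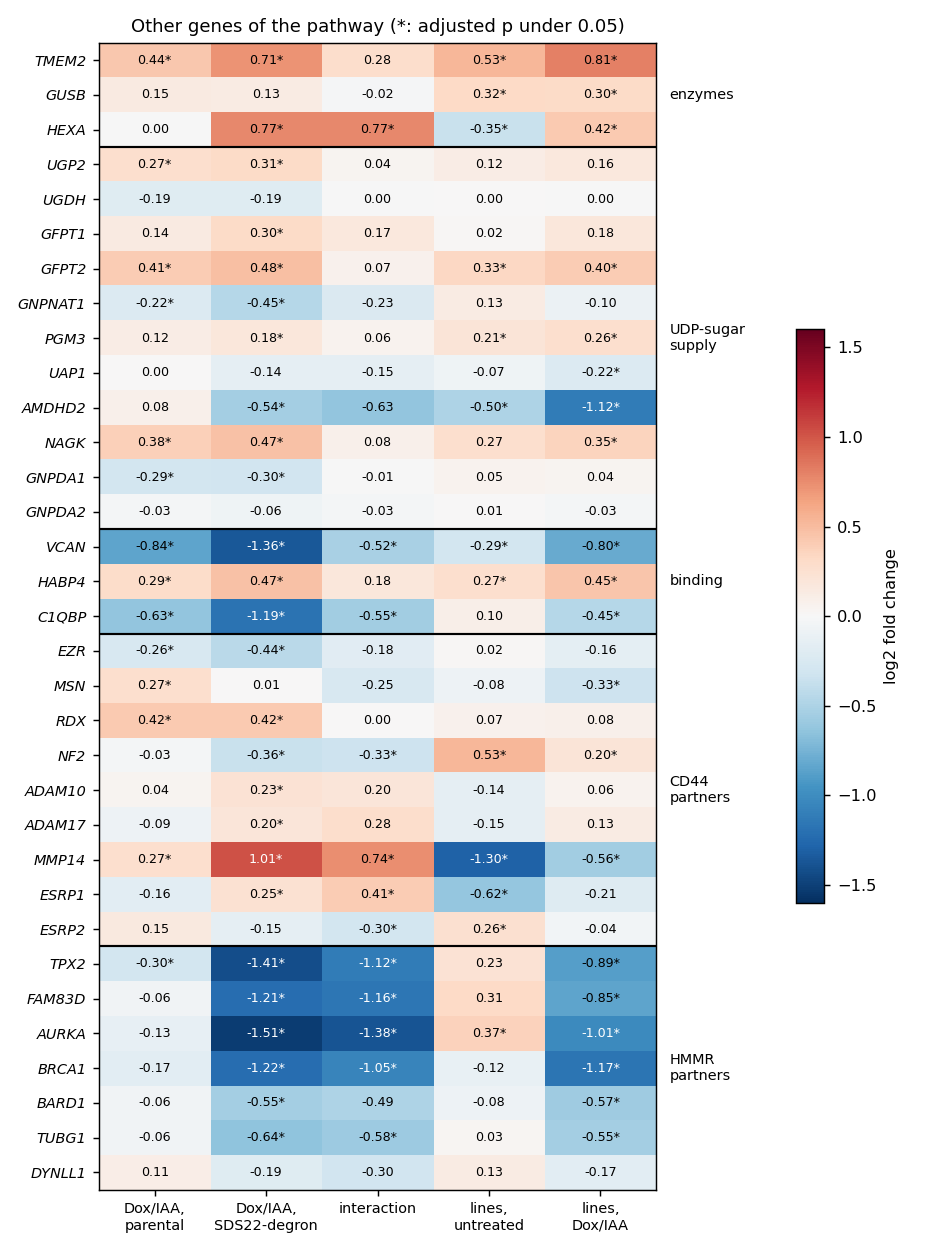
Log2 fold change (colour and numbers) of 33 pathway genes with a mean of at least 10 CPM in 5 comparisons, with genes in rows by list, and an asterisk where called. TMEM2 is higher in all 4 pairwise comparisons, and the HMMR partners from TPX2 to TUBG1 are lower in treated SDS22-degron cells.

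The spindle partners of HMMR were lower in the same condition as HMMR itself. Of 7 tested, 6 fell with Dox/IAA in SDS22-degron cells, where 51.5% of all genes were called in either direction, and 1 fell in parental cells, against 31.6%. The medians were -1.21 and -0.06 beside 0.00 over all genes. In the interaction 5 were lower, against 14.4% of all genes called. AURKA, the mitotic kinase Aurora A, had a mean of 79.3 CPM in untreated and 72.6 CPM in treated parental cells, with 61.9 to 93.4 CPM over these libraries. SDS22-degron cells had 103 ± 1.47 CPM untreated and 35.9 ± 3.20 CPM treated (SD, n = 3). Its log2 fold change with Dox/IAA was -1.51 in SDS22-degron (edgeR adjusted p = 2.53e-08) and -0.13 in parental cells (adjusted p = 0.451). TPX2, the spindle assembly factor that activates Aurora A, fell by 1.41 (adjusted p = 2.33e-09) and by 0.30 in parental cells (adjusted p = 0.0193, but up to 0.123 without replicate 2 of untreated or 1 or 3 of treated parental cells). FAM83D, BRCA1, TUBG1 and BARD1 fell by 1.21, 1.22, 0.64 and 0.55 in SDS22-degron cells. DYNLL1, a dynein light chain, had -0.19 there and was not called. Many of these genes are cell cycle regulated like HMMR, and the list was chosen with earlier results of these data known.

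**Figure D5:**
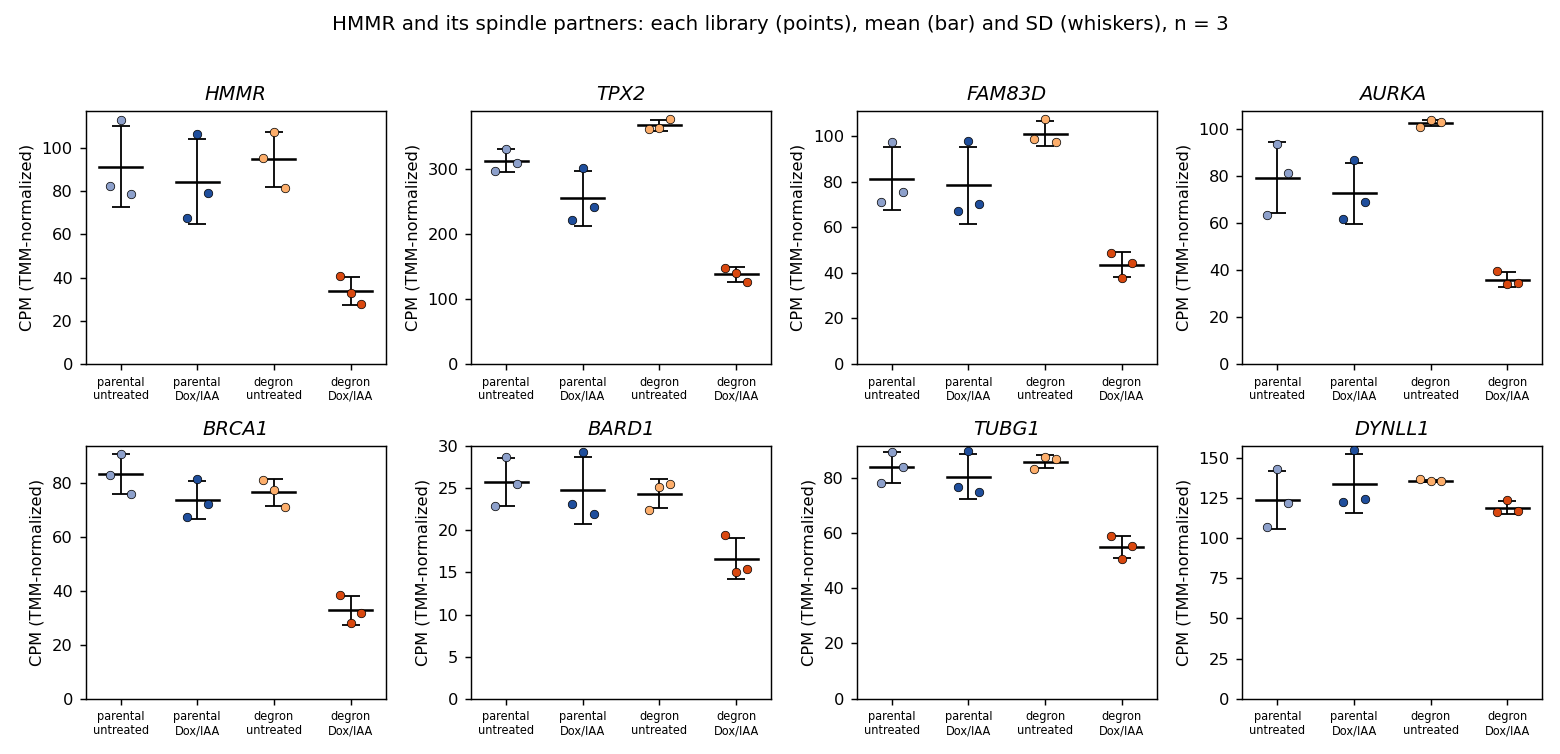
CPM (vertical axes, linear from 0) of HMMR and 7 spindle partners in the 4 conditions; points are libraries, bars the mean and whiskers the SD (n = 3). For AURKA the mean is 35.9 CPM in treated SDS22-degron cells and 72.6 to 103 CPM elsewhere, while the means of DYNLL1 lie between 119 and 136 CPM.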

How the data were processed

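Poly-A selected RNA of 12 libraries (3 biological replicates for each of 4 conditions, as labelled) was sequenced as stranded single reads. The deposited values are raw read counts for each gene, without normalization by the authors, with the position, length and GC content (in percent) of each gene. The submitters' processing notes name cutadapt 1.15, Bowtie2 2.3.3.1, STAR 2.5.2b, SAMtools 1.5, featureCounts 1.5.3 and GRCh38. The annotation release and the strand setting of the counting are not given in the sources used here, so reads of overlapping genes cannot be assigned with certainty.

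The members and gene lists were chosen with earlier results of these data known. Low genes were removed by filterByExpr (minimum count 10, by group), and TMM-normalized counts were fitted in edgeR 4.0.16 under R 4.3.3, with the means of the 4 groups as the only terms. The 5 comparisons (the lines with and without Dox/IAA, Dox/IAA in each line, and their interaction) used the quasi-likelihood F test with Benjamini-Hochberg adjustment. SE and 95% intervals were derived from the F statistic. HAS2 ratios have exact binomial intervals. The log2 CPM for correlations used a prior count of 2. No columns were identical, and replicates differed by a chi-square per degree of freedom of 2.16 to 9.73. Total counts of 12133915 to 14657508 per library leave genes such as HYAL1 and HAS2 imprecise. All members, overlapping genes with counts, and pathway genes with a mean of at least 10 CPM could be named. Likeness was ranked by Pearson r, for 5 genes for CEMIP and 3 for each other tested member, of which those for CEMIP, CD44 and HMMR are given. A gene of the enzyme list is not reported here. Cell type markers were summed CPM. Promoters came from a RefSeq table. The procedure was tested on simulated counts with planted changes.

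Alternatives were the likelihood ratio test (the study's own), DESeq2 1.42.0 and its size factors, library size or upper quartile scaling, no or a stricter filter, a fit of the compared groups alone, a block on replicate number, a GC correction per library with and without it, and leaving out each library.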

Additional observations from a re-analysis of the deposited data

Results flagged for a closer look

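Flags mark genes whose Dox/IAA effect, as a log2 fold change, differed between SDS22-degron and parental cells by the interaction term (edgeR quasi-likelihood test, adjusted p under 0.05 over 16657 genes). Groups of 3 libraries were too small for a check of single libraries. Of the members tested, CD44 differed by 0.54 (adjusted p = 0.00751), with 3 of 3 treated parental libraries below all 3 untreated ones. HMMR differed by -1.37 (adjusted p = 0.000609), with 3 of 3 treated SDS22-degron libraries below all others.

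Of the other pathway genes, 12 were flagged. HEXA differed by 0.77 (edgeR adjusted p = 0.00519) and MMP14 by 0.74 (adjusted p = 0.00206), both with the higher response in SDS22-degron cells. C1QBP differed by -0.55 (adjusted p = 0.000663) and VCAN by -0.52 (adjusted p = 0.0269). The spindle partners of HMMR differed by -1.12 (TPX2), -1.16 (FAM83D), -1.38 (AURKA), -1.05 (BRCA1) and -0.58 (TUBG1), with adjusted p between 3.37e-05 for TPX2 and 0.00200 for TUBG1. NF2, which encodes merlin, differed by -0.33 (adjusted p = 0.0387). The splicing factors of CD44 transcripts, ESRP1 and ESRP2, differed by 0.41 and -0.30 (adjusted p = 0.0428 and 0.0457). Untreated SDS22-degron cells already differed from untreated parental cells in the opposite direction, by 0.53 (NF2), -0.62 (ESRP1) and 0.26 (ESRP2), each called. The calls of VCAN, NF2, ESRP1 and ESRP2 were lost in 5, 6, 8 and 9 of 12 fits without 1 library.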

How the results depend on the processing

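Over the members there were 540 values under the alternatives, of which 491 kept direction and side of the threshold, 22 passed it newly, 1 lost it (HYAL3, in the report) and 26 changed sign. Those that changed sign were uncalled values near 0. CEMIP's log2 fold change stayed within 3.67 to 3.82 in SDS22-degron and 2.65 to 2.80 in parental cells. The interaction of HAS3 (0.00 in the report) was -0.018 with library size only, -0.0014 with the upper quartile, -0.00024 without a filter and -0.0080 with the GC correction; HYAL2 with Dox/IAA in parental cells was -0.046 with the GC correction. Leaving out 1 library gave -0.18 to 0.15 for the HAS3 interaction, -0.31 to 0.00098 and -0.28 to 0.014 for HAS3 with Dox/IAA in SDS22-degron and parental cells, and -0.025 to 0.097 for HYAL2 in parental cells. It gave -0.48 to 0.11 for HYAL1 between the treated lines, -0.31 to 0.071 for HMMR with Dox/IAA in parental cells and -0.045 to 0.25 for HMMR between the untreated lines. Members called with Dox/IAA in parental cells were 2, with HYAL1 added, by the likelihood ratio test and without a filter, and 1 to 2 without 1 library. The members called in the interaction were 4 by the likelihood ratio test. Pathway genes called were 14 between the untreated lines but 6 to 14 without 1 library (7, 6 and 8 without replicates 1, 2 and 3 of untreated SDS22-degron cells), and 15 with Dox/IAA in parental cells but 9 to 12 (9 without replicate 3 of treated parental cells). Of 113 calls of members, pathway and overlapping genes, 82 were kept in every fit without 1 library. The causes were not tested.

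Samples share replicate numbers across conditions, and 7 of 18 same-number pairs had correlated deviations over 0.1 (range -0.06 to 0.25). With correlations to the other conditions averaged by replicate number, 12 of 12 libraries had their highest mean with their own number. The data thus show some pairing by number over the 4 conditions, mostly with low correlations, and the labels do not say what a number marks. All 3 pairs were over 0.1 for untreated against treated parental cells and for the treated lines, where the block changed the call of 0 of 24 and 0 of 30 genes. Apart from the members, these genes were ones already called, so none of them could gain a call. Over all tested genes, the block raised the calls with Dox/IAA in parental cells from 2656 higher and 2608 lower to 2999 and 2986. Between the treated lines they went from 3633 higher and 3853 lower to 3902 and 4123. With the replicate number as a block, 4 members were called in the interaction (HYAL2 and HYAL3 added, adjusted p = 0.0313 and 0.0358 by edgeR), also with the GC correction, and 3 with Dox/IAA in SDS22-degron cells. The HAS3 interaction was -0.015 with the block and -0.025 with the block and GC correction. With both, 2 members were called with Dox/IAA in parental cells, and HYAL2 there was -0.044.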
